A study of Mus musculus with 10 samples.

Results

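Hmx2, Scand1, Nr2f6 and Aes encode transcriptional regulators of 4 unrelated kinds, which were measured in MIN6N8 mouse insulinoma cells by mRNA sequencing. They are 4 of the 230 genes in the deposited table and were found there by their gene symbols. The table lists genes whose expression differed between IL-22 and PBS by the authors' own test, with a largest false discovery rate (FDR) of 0.0499. The 4 genes were therefore chosen from the same comparison that is described here, and their difference between IL-22 and PBS is given as a description. Where a test was run on it, nothing is read from the calls, since the listing used the same values. The cells, an insulin-secreting tumour line, were moved to medium with 5.5 mM glucose and received PBS (5 libraries) or IL-22 at 100 ng/mL (5 libraries) for 4 h. The dose and the number of samples are those of the sample labels, whereas the study's methods give a lower dose and a legend of the study another number of samples. The labels number 5 samples in each group without saying whether they came from separate cultures, so the spread between them may be technical. Of 22 beta-cell markers, 6 were in the table, among them Iapp, the gene of the granule peptide amylin, at a mean of 8928 CPM with PBS, where CPM is a gene's count scaled to the counted reads of the library. None of 26 markers of other pancreatic cells was in it, which says nothing of their expression since the table holds selected genes only. Library totals were 23685893 to 35785868 counted reads with PBS and 26759229 to 30568904 with IL-22. In bulk RNA of this kind, fewer cells that express a gene and less of its RNA per cell cannot be told apart.

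IL-22 signals through a receptor at the cell surface to JAK kinases and the transcription factor STAT3, and the genes it induces in epithelia include further regulators of transcription. Hmx2 is a homeodomain protein of the NK class and is best known for patterning the inner ear and the hypothalamus. Scand1 holds little more than a SCAN domain, the module by which a family of zinc finger proteins pair with each other, and has no zinc fingers of its own. Nr2f6, also called EAR2, is an orphan nuclear receptor of the COUP-TF group that mostly represses its targets. Aes, renamed Tle5, is a short relative of the Groucho/TLE corepressors that lacks their WD40 repeats and modulates the longer members. Groucho/TLE corepressors bind short motifs in homeodomain proteins, including NK-class factors of the pancreas.

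Hmx2 lies on chromosome 7 (GRCm38, 131548773 to 131558014, plus strand), inside an annotated Fgfr2 gene model of the opposite strand. Scand1 lies on chromosome 2 (156311847 to 156312704, minus strand), and 203 nt of its transcript are also in Cnbd2, which is on the other strand. Nr2f6 lies on chromosome 8 (71374123 to 71381960, minus strand) and shares 529 nt with Ocel1 of the other strand. Aes lies on chromosome 10 (81559488 to 81566362, plus strand) and overlaps no annotated gene. The libraries were made with a stranded kit, but whether strand was used in counting is not given in the sources used here, so reads of Cnbd2 and Ocel1 cannot be told apart from those of Scand1 and Nr2f6 in the shared stretches. No stretch of at least 100 nt at 97% identity with another gene was found for Hmx2 and Aes.

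The start regions of 3 of the 4 genes are held in the RefSeq promoter set (GRCm38.p6), which gives no entry under the symbol Aes. They are shown because the genes were higher together and differ in base composition. The bases printed run 5′ to 3′ on the strand of the gene, start 250 bases before the RefSeq start and stop before the first annotated exon. Capitals mark each TATA box (TATAAA) and GC box (GGGCGG), read on both strands, that lies wholly in the printed bases.
Hmx2 (chr7:131548507-131548756, plus strand): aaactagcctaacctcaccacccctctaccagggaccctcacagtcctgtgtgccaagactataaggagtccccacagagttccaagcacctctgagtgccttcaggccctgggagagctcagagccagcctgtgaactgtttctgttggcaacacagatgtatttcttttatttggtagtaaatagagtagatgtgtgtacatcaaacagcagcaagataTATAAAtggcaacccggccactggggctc
Scand1 (chr2:156312800-156312954, minus strand): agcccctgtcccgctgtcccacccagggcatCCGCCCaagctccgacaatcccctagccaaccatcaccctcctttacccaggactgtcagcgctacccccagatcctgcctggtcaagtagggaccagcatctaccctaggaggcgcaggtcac
Nr2f6 (chr8:71381961-71382202, minus strand): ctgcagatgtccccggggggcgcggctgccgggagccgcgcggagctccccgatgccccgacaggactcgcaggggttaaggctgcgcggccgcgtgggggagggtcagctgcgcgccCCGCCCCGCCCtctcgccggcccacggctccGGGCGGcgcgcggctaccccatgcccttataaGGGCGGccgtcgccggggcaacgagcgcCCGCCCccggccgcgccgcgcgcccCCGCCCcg
Over the whole window from 250 bases before to 50 after the start, Hmx2 held 1 TATA box, with its first base 29 bases before the start, and no GC box. Scand1 held 2 GC boxes, of which 1 lies past the printed bases, and Nr2f6 held 7, some of which overlap. Of 32544 such windows over all genes, 13.6% held the TATA box and 35.9% the GC box. The Nr2f6 window was 82.7% G and C, higher than in 99.6% of all windows, against 61.3% for Scand1 and 50% for Hmx2. A second annotated Hmx2 start, inside the gene, had 3 GC boxes and 67.7% G and C. The palindrome TTCNNNGAA, to which STAT proteins bind, was in none of these windows and in 8.33% of all windows, which says only that these letters are not in these stretches.

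Scand1 showed the largest difference of the 4 genes. With PBS its level was 0.838, 1.27, 2.03, 0.780 and 2.66 CPM in libraries 1 to 5. With IL-22 it was 3.93, 3.88, 5.68, 4.63 and 4.13 CPM. All IL-22 libraries lay above all PBS libraries, and the gap between the groups was 1.22 CPM. The log2 fold change was 1.56 (SE 0.277), which ranked 2 among the 230 genes, and the mean was 2.94 times as high with IL-22. These values rest on 23 to 152 reads per library. The PBS libraries spread more widely than the IL-22 libraries, with a coefficient of variation (CV) of 53.6% against 16.8%. Reads alone would give a chi-square per degree of freedom near 1 within a group, and it was 13.3 with PBS and 3.45 with IL-22.

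Hmx2 was the lowest of the 4 genes. Its PBS libraries gave 0.447, 1.31, 0.900, 0.407 and 1.55 CPM, or 12 to 45 reads. Its IL-22 libraries gave 1.24, 2.46, 2.02, 1.68 and 1.77 CPM, or 38 to 66 reads. The groups overlapped, since IL-22 library 1 lay below PBS libraries 2 and 5, although each IL-22 library was above the PBS median. The log2 fold change was 1.02 (SE 0.345), rank 10 of 230. Counting error is wide at this depth. The exact 95% Poisson interval was 0.210 to 0.711 CPM for PBS library 4 and 1.13 to 2.08 CPM for PBS library 5, and it covers counting error only. The 2 intervals do not meet, so the PBS libraries differed from each other by more than their read numbers allow. The interval of PBS library 5 overlapped that of each of the 5 IL-22 libraries.

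Nr2f6 was measured on 531 to 988 reads per library. It stood at 22.2, 22.4, 27.2, 23.5 and 28.2 CPM with PBS and at 32.3, 31.6, 32.2, 29.3 and 27.9 CPM with IL-22. The groups touched only through PBS library 5, which was above IL-22 library 5. The log2 fold change was 0.31 (SE 0.075), rank 58 of 230 and a mean 24.1% higher. Aes was the most abundant of the 4, with 9627 to 14129 reads per library. It had 394.8, 406.4, 415.1, 419.2 and 450.8 CPM with PBS and 451.7, 463.9, 469.8, 468.1 and 452.2 CPM with IL-22. No IL-22 library fell below a PBS library, but PBS library 5 and IL-22 library 1 were only 0.981 CPM apart. The log2 fold change of Aes was 0.14 (SE 0.034), rank 171 of 230, which is a mean 10.5% higher and less than the median of 0.21 over all listed genes.

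**Figure D1:**
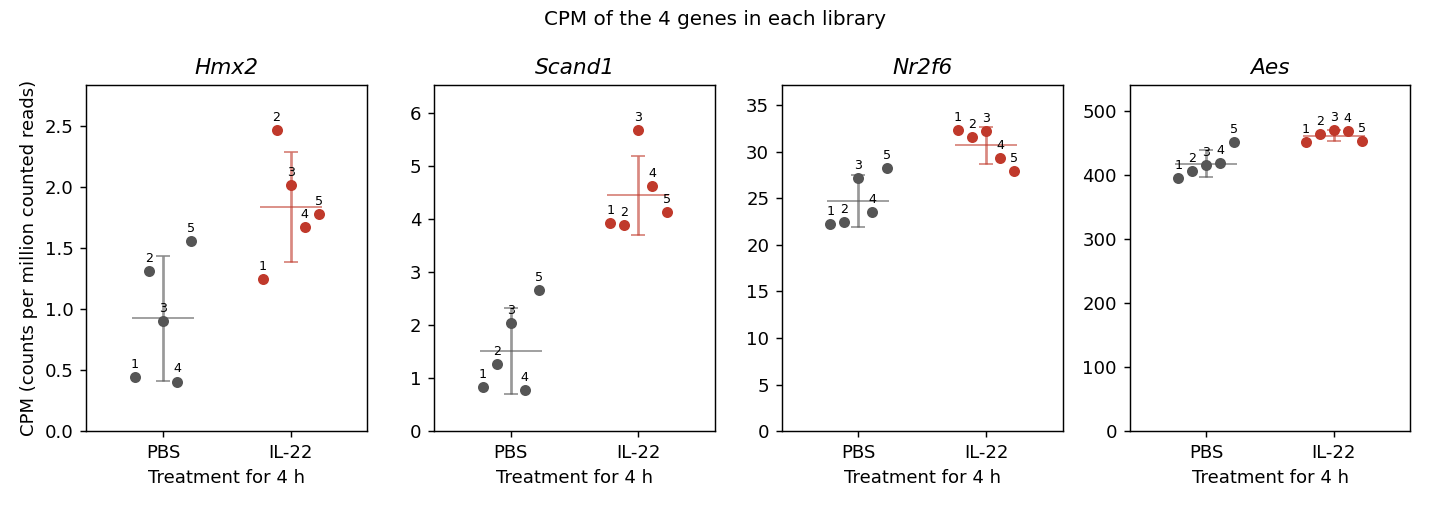
CPM of each gene (vertical axes from 0, a scale of its own for each gene) in the 5 PBS and 5 IL-22 libraries, with the library number above each point and bars for the mean and SD. Library 5 is the highest PBS library in all 4 panels, at 1.55 CPM for Hmx2, 2.66 for Scand1, 28.2 for Nr2f6 and 450.8 for Aes.

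In edgeR's quasi-likelihood test with adjustment over the table, 4 of the 4 genes passed the threshold of 0.01 with IL-22 higher, as did 81.3% of all listed genes. Groups that did not overlap, with IL-22 higher, were found for 2 of the 4 genes, Scand1 and Aes, and for 46.5% of the listed genes. When the adjustment ran over all 16308 genes that the authors' p-values imply, 0 of the 4 were below 0.01, against 4.78% of the listed genes. At an unadjusted p-value under 0.05 edgeR had all 4 higher, as it had 85.7% of the listed genes, and the rest of them lower, so that this count repeats the listing. With library totals and adjustment over 16308 genes, DESeq2 called 2 of the 4 higher, beside 23.9% of the listed genes, and limma-voom 0, beside 6.09%. Hmx2 was called over the listed genes in only 3 of the 10 fits that each left out a library, those without PBS library 2, PBS library 5 or IL-22 library 1. Its log2 fold change ran from 0.82 to 1.32 in the 10 fits, against 1.39 to 1.87 for Scand1, 0.27 to 0.36 for Nr2f6 and 0.12 to 0.17 for Aes.

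Per kilobase of the longest coding transcript, the 4 genes kept the order of their CPM. Mean levels with PBS were 0.298 CPM per kilobase for Hmx2, 1.997 for Scand1, 11.1 for Nr2f6 and 296 for Aes. Neighbours in this order did not overlap in any library: the highest library of Hmx2 reached 0.795 CPM per kilobase and the lowest of Scand1 was 1.03. The highest of Scand1 was 7.48 against 10.0 for the lowest of Nr2f6. Among the 230 genes Aes ranked 5 per kilobase and Hmx2 228. The transcript lengths used were 3102 nt for Hmx2, 759 nt for Scand1, 2218 nt for Nr2f6 and 1411 nt for Aes, and the isoform present in these cells was not measured.

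The 4 genes shared their highest PBS library but not the order of the others. PBS library 5 was the highest of its group in each of them, and PBS library 1 or 4 the lowest. PBS library 3 was next to it in Scand1 and Nr2f6, as was library 2 in Hmx2 and library 4 in Aes. Over the 5 PBS libraries, Pearson's r of log2(CPM + 1) was 0.91 between Scand1 and Nr2f6, 0.82 between Hmx2 and Scand1 and 0.81 between Nr2f6 and Aes. The lowest of the 6 pairs was Hmx2 with Nr2f6, at 0.53. Over the 5 IL-22 libraries the 6 values ran from 0.031 to 0.70. These are descriptions of 5 libraries each, and the genes share library and depth.

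The libraries also differed in how their listed genes depended on GC content. A GC index was taken for each library as the slope of log2(CPM + 1), less the gene's mean, on transcript GC content over the 226 other listed genes, in log2 units per 10 points of GC. It was -0.135, -0.124, -0.035, -0.068 and 0.060 in PBS libraries 1 to 5 and lay between 0.038 and 0.085 in the IL-22 libraries. PBS library 5 thus stood within the range of the IL-22 libraries. The transcripts of Scand1 and Nr2f6, at 68.4% and 67.3% GC, ranked 6 and 8 among the 230 genes. Aes had 60.0% and Hmx2 55.0%, beside a median of 57.4%.

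Over all 10 libraries, with the mean of each group removed, r with the GC index was 0.92 for Aes, 0.77 for Scand1, 0.74 for Nr2f6 and 0.50 for Hmx2, beside a median of 0.58 over the listed genes. Aes ranked 12 of 230 in this and 78 of 230 in its own GC content. Within the PBS libraries alone r was 0.96 for Aes, 0.93 for Nr2f6, 0.83 for Scand1 and 0.54 for Hmx2. Within the IL-22 libraries it was 0.63, -0.49, 0.18 and 0.42 in the same order. The index was measured on genes listed for this comparison, and it differs between the groups as they do. The part of library GC content in the differences of the 4 genes was not tested.

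**Figure D2:**
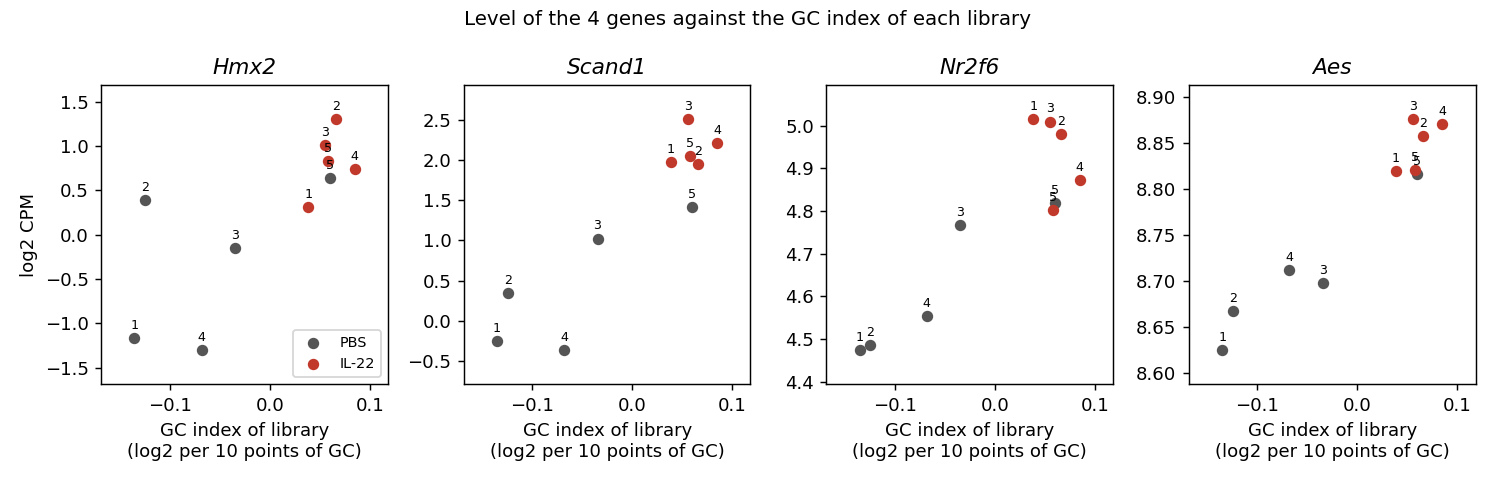
The log2 CPM of each gene (vertical axes) against the GC index of the library (horizontal axes, log2 per 10 points of GC content), with PBS libraries in grey, IL-22 libraries in red and library numbers above the points. PBS library 5, at an index of 0.060, stands among the IL-22 libraries in Hmx2 and Nr2f6, beside the lowest of them in Aes and below all of them in Scand1.

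With the index as a covariate, the log2 fold change was 0.75 (SE 0.276) for Scand1, 0.36 (SE 0.411) for Hmx2, 0.11 (SE 0.087) for Nr2f6 and 0.04 (SE 0.039) for Aes. None of the 4 was then called by edgeR over the listed genes, of which 9.57% were called higher, and 1 of the 4, Scand1, was higher at an unadjusted p-value under 0.05, as were 32.6% of the listed genes. Without PBS libraries 3 and 5, a choice made after their values were seen, the differences were larger, with 2.24 for Scand1, 1.44 for Hmx2, 0.43 for Nr2f6 and 0.18 for Aes.

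The calls of 3 of the 4 genes, and the sign of Aes, depended on how the libraries were scaled. Factors computed over the listed genes alone, by TMM, DESeq2 or equal medians, shifted the log2 fold changes of all listed genes by a median of -0.16 to -0.21. Aes, at 0.14, is smaller than each of these shifts, which moved it to -0.061 (SE 0.029), -0.050 (SE 0.021) and -0.017 (SE 0.033), the last within its SE of 0. Nr2f6 had 0.11, 0.12 and 0.15, Hmx2 0.82, 0.82 and 0.87, and Scand1 1.36, 1.38 and 1.41 in the same order. Only Scand1 was still called under these 3 scalings, which called 7.83%, 13% and 11.7% of the listed genes higher, and the calls of Hmx2, Nr2f6 and Aes ended. Such factors rest on the idea that most genes stay level, whereas every gene in the table was picked for a difference.

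**Figure D3:**
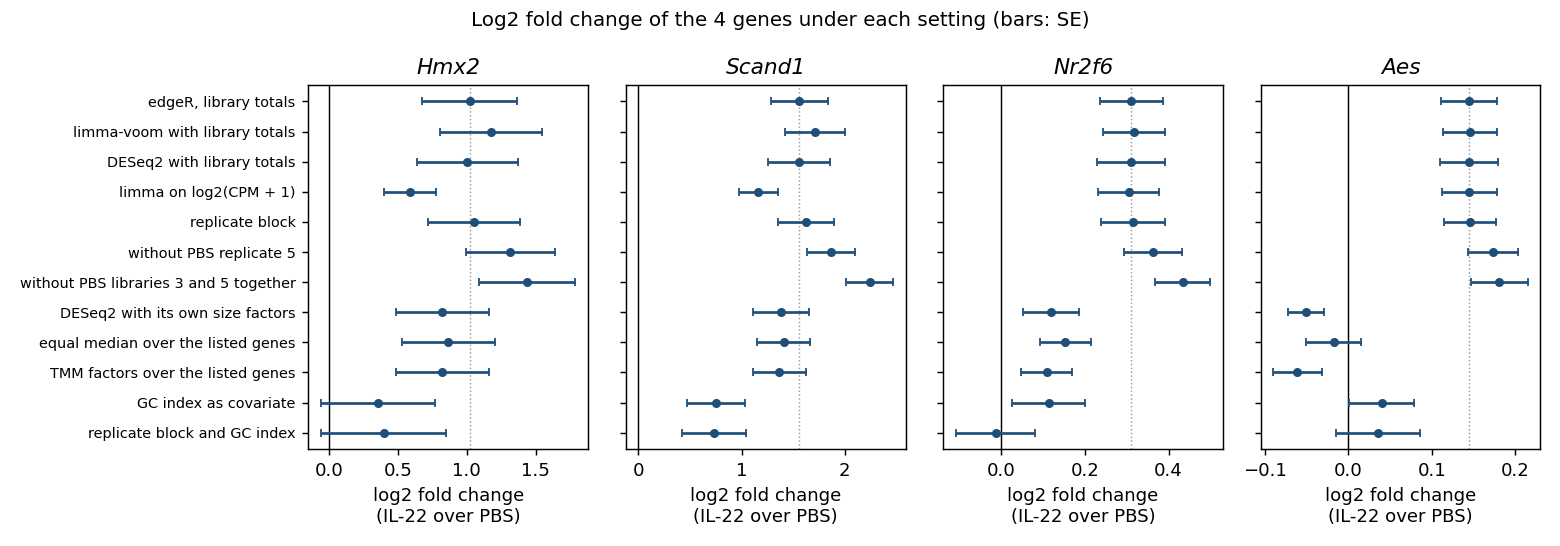
Log2 ratio of IL-22 to PBS (horizontal axes, a scale of its own for each gene, bars for the SE) under 12 settings named at the left, with a solid line at 0 and a dotted line at the value of the edgeR fit with library totals. The values of Scand1 and Hmx2 stay above 0 in all 12. The SE bar of Hmx2 crosses 0 with the GC index (0.36, SE 0.411) and with the replicate block and the index (0.40, SE 0.453). Aes falls below 0 under the 3 scalings over the listed genes, and Nr2f6 falls to -0.013 with the replicate block and the GC index together.

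Relatives of the 4 genes were looked for among the listed genes, which are 1.04% of the annotated protein-coding genes, expressed or not. Of 8 Groucho/TLE genes and 48 nuclear receptors looked for, Aes and Nr2f6 were the only listed members. Of 134 homeobox genes, 6 were listed. The 5 besides Hmx2 passed the same edgeR threshold with IL-22 higher, as did 81.3% of all listed genes. Msx1, a homeobox gene of limb and craniofacial development, had a log2 fold change of 0.81 (SE 0.214) and means of 2.58 and 4.55 CPM. It was the only one of the 5 near Hmx2 in level. The others were the beta-cell factors Pdx1 (0.16), Nkx6-1 (0.26) and Nkx2-2 (0.17) and the neuronal factor Cux2 (0.22), with means from 51.4 to 188 CPM with PBS. Barhl1, a homeobox gene missing from the list used and added after its value was seen, had 0.17. Each of these 6 had overlapping groups, whereas 46.5% of all listed genes had every IL-22 library above every PBS library. With the GC index as a covariate, Msx1 had a log2 fold change of 0.21, Nkx6-1 0.074, Pdx1 0.057, Cux2 0.041, Nkx2-2 0.027 and Barhl1 0.0048.

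Of 34 genes with a SCAN domain, 2 were listed. Mzf1, a zinc finger protein with a SCAN domain, had a log2 fold change of 0.44 (SE 0.155) from means of 6.71 and 9.09 CPM, with overlapping groups, and did not pass the threshold. Of 107 other transcription factors of beta cells and cytokine signaling, 9 were listed and 8 of them were called higher, led by Cebpb (0.90), Junb (0.75), Jund (0.67) and Mafa (0.58). Over all 6 lists of transcription factors and corepressors looked for, 14 of the 16 listed genes besides the 4 were called higher and 0 lower, beside 81.3% and 13.5% of all listed genes. Both genes not called, Mzf1 and Bcl3, were higher with IL-22 at an unadjusted p-value under 0.05. The median log2 fold change of the 16 was 0.27, against 0.21 over all 230. In the edgeR fit with library totals, Scand1 and Hmx2 were above each of the 16. With the GC index as a covariate, Cebpb (0.93) was above Scand1 (0.75) and Hmx2 (0.36), and Junb (0.43) was above Hmx2.

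The listed genes whose libraries varied most like each of the 4, once group means were removed, were found by Pearson's r over 10 libraries. For Aes they were Scaf1 (0.98), Mafa (0.97) and Dohh (0.95), and for Nr2f6 they were Zfp358 (0.98), Mex3d (0.88) and Gm1673 (0.87). For Scand1 they were Cox6a1 (0.89), Jund (0.89) and Tpgs1 (0.88). For Hmx2 they were Bcl3, a nuclear cofactor of NF-κB (0.87), Junb (0.80) and Cebpb (0.77). With group means removed in the same way, r with the GC index was 0.92 for Aes, 0.77 for Scand1, 0.74 for Nr2f6 and 0.50 for Hmx2. The part of the index in these likenesses was not tested. When single libraries were left out, the number of these named again ran from 0 to 3 for Hmx2, 0 to 2 for Scand1 and 1 to 3 for Nr2f6. It was 0 for Hmx2 without PBS library 2 and for Scand1 without PBS library 4. The choice was thus loose for these genes and firm for Aes, with 2 or 3.

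Aes and Nr2f6 both lie among other listed genes. Within 1 Mb on either side of Nr2f6 there are 74 other protein-coding genes, and 11 of them (14.9%) were listed, among them Jund, Jak3 and Mrpl34. Around Aes the count was 6 of 79 (7.59%), among them Dohh and Zbtb7a, and around Scand1 it was 1 of 47, Romo1. None of the 20 around Hmx2 was listed. Over the whole annotation the 230 listed genes are 1.04% of 22028 protein-coding genes, expressed or not. All of these listed neighbours passed the same edgeR threshold with IL-22 higher, as did 81.3% of all listed genes. The log2 fold changes of the neighbours ran from 0.14 to 0.67 near Nr2f6 and from 0.14 to 0.21 near Aes. Dohh was thus both close to Aes, at 177 kb, and among the 3 genes most like it across libraries. A link between Dohh and Aes was not tested.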

How the data were processed

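Stranded mRNA libraries of MIN6N8 cells given PBS or IL-22 (5 each) were sequenced by the authors, with mm10 as the build in the submitters' processing notes. The aligner and counting program are not given in the sources used here. The authors deposited raw counts per gene for 230 genes, and CPM, which the authors scaled to each library's counted reads (equal to count over total within 0.0011 CPM in 99.8% of values). The deposited table also holds the authors' log2 fold change, log2 mean expression, p-value and FDR, which were used only to see how genes were listed and that 16308 were tested. Library totals, as count over CPM, were 23685893 to 35785868.

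The members and gene lists were chosen with earlier results of these data known. Counts were fitted with edgeR 4.0.16 (R 4.3.3, quasi-likelihood, library totals, genes with at least 1 CPM in 5 libraries, which all 230 met), adjusted by Benjamini-Hochberg over 230 genes or over 16308. Dispersions come from listed genes only. The SE was derived from the F statistic. Alternatives used limma 3.58.1, DESeq2 1.42.0, other scalings and filters, a replicate block, the GC index, and each library left out. GC content and length come from the longest coding transcript in GENCODE M21 (GRCm38), where 220 genes matched by symbol and 10 by an older one. Shared sequence was sought with blastn 2.17.0. Named genes are the 4, the 3 listed genes most like each, and listed members of gene lists, with values for relatives of the 4 and for up to 4 others per list by size of change. The result for 1 gene of these lists is not reported here.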

Additional observations from a re-analysis of the deposited data

How the results depend on the processing

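Of the 230 listed genes, 218 were called at an adjusted p-value below 0.01 (187 higher, 31 lower). TMM factors over the listed genes left 51 (18 higher, 33 lower), equal medians 60 (27 and 33), DESeq2's own size factors 63 (30 and 33), the GC index 22 (22 and 0), the block with the index 24 (24 and 0) and adjustment over 16308 genes 11 (11 and 0). With the index, edgeR called 0 genes lower over the listed genes. With each library left out the count ran from 145, without PBS library 1, to 228. The log2 fold change of Scand1 became 0.75 with the GC index, 0.73 with the block and the index, and 2.24 without PBS libraries 3 and 5. That of Nr2f6 became 0.11 with TMM, 0.15 with equal medians, 0.12 with DESeq2's size factors, 0.11 with the index and -0.013 with the block and the index. That of Aes became -0.061, -0.017 and -0.050 under the 3 scalings in that order, 0.040 with the index and 0.035 with the block and the index. The 3 scalings shifted the log2 fold changes of all listed genes by a median of -0.16 to -0.21. The causes of the changes with the scalings and with the index were not tested. Hmx2, at a depth of 12 to 66 reads, lost its call under the 3 scalings, with the index (log2 fold change 0.36), with the block and the index (0.40), with at least 10 counts in every library (1.02) and in 7 of the 10 fits without 1 library.

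Same-numbered libraries of the 2 groups correlated across genes at 0.26, 0.29 and 0.26 for replicates 1 to 3. For replicates 4 and 5 the values were 0.0044 and -0.14. Replicates 1 and 2 correlated best with their own number in both directions, replicate 3 from the PBS side only, and replicates 4 and 5 in neither. Whether the number marks pairs is thus not settled. With the replicate block, 225 genes were called, and the log2 fold changes were 1.05 for Hmx2, 1.62 for Scand1, 0.32 for Nr2f6 and 0.15 for Aes. Of the 3 genes most like each member, the number named again with single libraries left out ran from 0 to 3 for Hmx2, 0 to 2 for Scand1, 1 to 3 for Nr2f6 and 2 to 3 for Aes. By Spearman's rho it was 0 for Scand1.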
